A study of Mus musculus with 10 samples.

Results

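Aminoacyl-tRNA synthetases, the enzymes that load each amino acid onto its transfer RNA, were followed in infarcted mouse hearts that had received 4FM3 or phosphate-buffered saline (PBS). Members were taken by gene symbol: a letter of the amino acid code followed by ars, ars1 or ars2, together with Eprs, Farsa, Farsb and Tarsl2. The rule found 38 genes among 49585 rows of the count table, which is 0.0766% of the rows. Symbols ending in 2, apart from Tarsl2, made up the mitochondrial class of 17 genes, and the other 21 formed the cytosolic or dual class. All 38 passed the filter on low counts that left 12906 genes for testing.

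RNA sequencing was done on the left ventricle of male ICR mice, an outbred strain, with 5 libraries from hearts given 4FM3 and 5 from hearts given PBS. Both groups had a myocardial infarction and were taken 4 weeks after it, and the labels of both give 8 weeks as the time without saying what it is counted from. The title of the study names direct reprogramming in the animal with an adeno-associated virus (AAV), and the comparison asks how the infarcted ventricle differs with that treatment. Atria, valves and the right ventricle had been removed, and libraries were made from total RNA depleted of ribosomal RNA with a kit that keeps strand. The sources used here do not say which genes or agents make up 4FM3, no genotype beyond the strain is given, and neither group was uninjured or labelled as given an empty vector. The labels do not say whether the libraries of a group came from different animals, so each p-value reflects only how far these libraries vary, which may in part be technical.

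Cells hold separate sets of these enzymes for the cytosol and for the mitochondrion, and both sets are encoded in the nucleus. Gars and Kars each serve both compartments from a single gene, Eprs joins the glutamyl and prolyl activities of the cytosol in one chain, and Farsa and Farsb are the alpha and beta subunits of the cytosolic phenylalanyl enzyme. Mitochondria have no glutaminyl enzyme of their own: Ears2 loads glutamate onto the glutamine transfer RNA and an amidotransferase built from Qrsl1, Gatb and Gatc converts it. The heart depends on mitochondrial translation for the respiratory chain subunits that the mitochondrial genome encodes, and many cytosolic synthetase genes are known targets of ATF4, the transcription factor of the amino acid and stress response.

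Library totals lay between 6634159 and 7319968 counts in the 4FM3 group and between 7099249 and 7711177 in the PBS group. The 38 genes together took 0.184 to 0.196% of the counts in 4FM3 libraries and 0.174 to 0.181% in PBS libraries, and single members had 33 to 1434 counts in a library. Levels are given below in CPM, the count scaled to a common library size with TMM factors, which assume that most genes do not change, and differences as the fitted log2 fold change of 4FM3 over PBS. A gene is said to have risen or fallen where the edgeR quasi-likelihood test gave a Benjamini-Hochberg adjusted p under 0.05 over all genes tested. PBS replicates 2 and 3 stood apart in lung transcripts: the 12 lung markers summed to 1200 and 1150 CPM there, against 0.614 to 26.3 CPM in the 5 4FM3 libraries and 3.38 to 5.28 CPM in the other PBS libraries. Counts of members are therefore also given without these libraries.

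Most of the mitochondrial enzymes were higher with 4FM3. Of the 17 genes, 11 rose, 0 fell and 6 did not pass the test, and all 17 had a positive log2 fold change, although scaling by library size alone left 13 positive. Over all genes tested, 20.9% rose and 22.1% fell, 43% in either direction. The median log2 fold change of the class was 0.345, against -0.03 over all genes tested. For 7 of the 17 genes every 4FM3 library lay above every PBS library, which held for 14.1% of all genes tested. The mean log2 CPM of the class was 4.69, 4.50, 4.75, 4.75 and 4.68 in 4FM3 replicates 1 to 5, against 4.37, 4.29, 4.27, 4.44 and 4.13 in PBS replicates 1 to 5. With TMM scaling these class means did not overlap between the groups. Without PBS replicates 2 and 3, 6 of the 17 rose and the class median was 0.34, while 3521 genes were called in the whole table, against 5546 with all libraries.

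In the cytosolic and dual class fewer genes passed the test. Of the 21 genes, 7 rose, 0 fell and 14 did not pass the test, with a median log2 fold change of 0.13, and scaling by library size alone turned that median to -0.04, with 3 genes higher and 3 lower. In 4 of the 21 genes the groups did not overlap, all with 4FM3 higher. Over all genes tested, 20.9% rose, and 14.1% did not overlap with 4FM3 higher. Without PBS replicates 2 and 3, 4 genes of the class rose. Library size alone shifted the median of all genes by -0.18. Relative to the median of all genes, the class median was 0.16 under both scalings. That of the mitochondrial class was 0.37 with TMM and 0.38 with library size alone. A change of scaling moves all genes nearly alike, so these relative medians could hardly differ and do not tell which scaling holds. The mean log2 CPM of the cytosolic class was 5.88, 5.85, 5.87, 5.81 and 5.80 in 4FM3 replicates 1 to 5 and 5.74, 5.65, 5.64, 5.67 and 5.69 in PBS replicates 1 to 5. With TMM scaling these means did not overlap between the groups either. The TMM factors were 0.916 to 0.968 in 4FM3 libraries and 1.03 to 1.1 in PBS libraries, which raises 4FM3 levels relative to PBS levels. For both classes the lack of overlap of the means is shown with TMM scaling alone. The difference of the class means, mitochondrial minus cytosolic, was -1.17 ± 0.11 in 4FM3 libraries and -1.38 ± 0.12 in PBS libraries (SD, n = 5 each), and its single values overlapped between the groups.

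**Figure D1:**
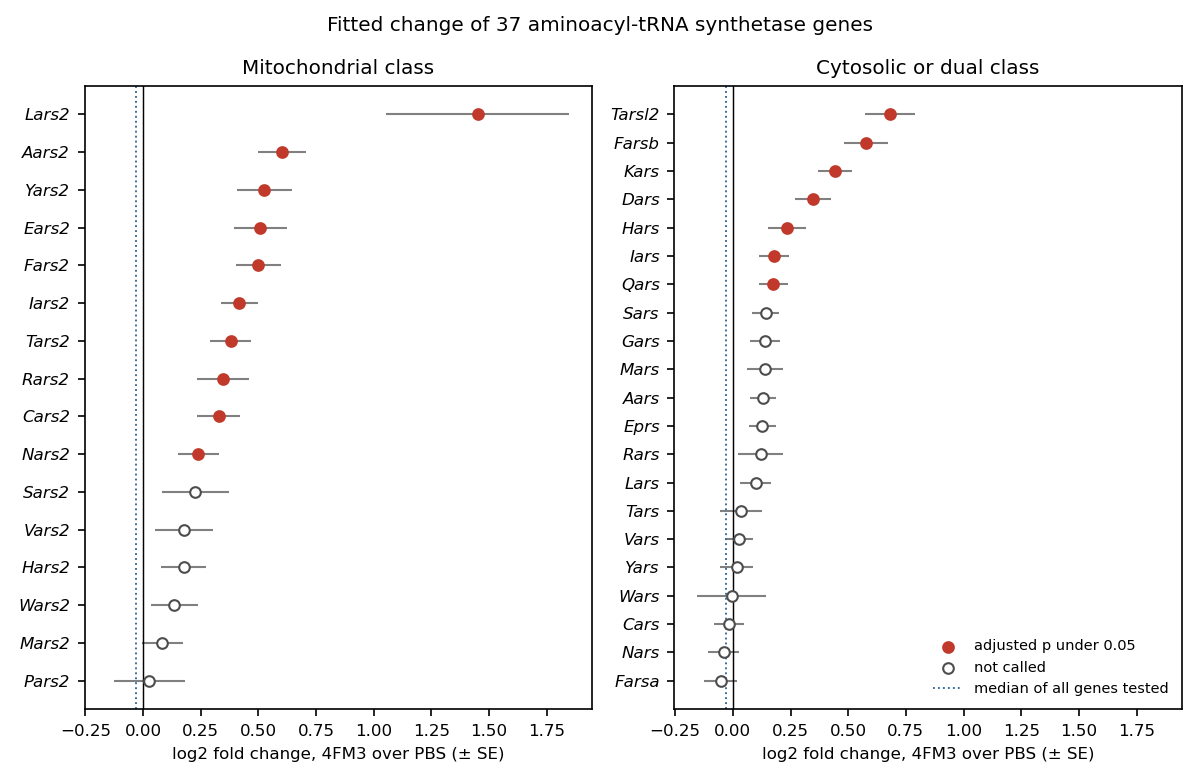
Fitted log2 fold change of 4FM3 over PBS for 37 of the genes with its standard error, the mitochondrial class on the left and the cytosolic or dual class on the right; filled points passed the edgeR test. The 16 mitochondrial genes drawn lie between 0.03 and 1.45 and the cytosolic ones between -0.05 and 0.68 with TMM scaling; with library size alone 4 mitochondrial and 14 cytosolic genes lie below 0.

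Among the mitochondrial enzymes, Aars2, the alanyl enzyme, had 33.7, 26.8, 32.5, 34.4 and 25 CPM in 4FM3 replicates 1 to 5, against 20.6, 19.4, 19.3, 22.4 and 18.6 CPM in PBS replicates 1 to 5. All 4FM3 libraries were above all PBS libraries, and Aars2 rose with a log2 fold change of 0.60 (SE 0.10, adjusted p = 0.000827), a fold of 1.52. The gene lies at chr17:45506841-45520843 on the plus strand (mm10). Yars2, which charges tyrosine, had 26.5, 21.2, 31.7, 28.2 and 26.3 CPM with 4FM3 and 21.6, 16.3, 18, 20.8 and 16.2 CPM with PBS. The lowest 4FM3 value, in replicate 2, was just under the highest PBS value, in replicate 1, and the gene rose by a log2 fold change of 0.53 (SE 0.12, adjusted p = 0.004). Yars2 lies at chr16:16302965-16309640 on the plus strand.

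Ears2, the glutamyl enzyme that also starts the mitochondrial route to glutaminyl transfer RNA, had 16.3, 14, 19.2, 14.5 and 13.3 CPM in 4FM3 libraries, against 10.5, 11.7, 10, 11.8 and 10.2 CPM in PBS libraries. The groups did not overlap, 4FM3 replicate 3 was the highest, and the log2 fold change was 0.51 (SE 0.12, adjusted p = 0.00426). Ears2 lies at chr7:122037213-122067263 on the minus strand. The other steps of that route were read from a short list with the formyltransferase of the initiator methionine. The amidotransferase subunit Qrsl1 rose to 30.8 ± 5.38 CPM in 4FM3 libraries, against 17.1 ± 1.43 CPM in PBS libraries (SD, n = 5 each), with an adjusted p of 0.000318. Gatb, the subunit that binds the transfer RNA, rose to 23.2 ± 3 CPM in 4FM3 libraries, against 13.7 ± 2.07 CPM in PBS libraries, with an adjusted p of 0.000626. The other 2 of the 4 genes did not pass: Gatc had a log2 fold change of 0.15 (adjusted p = 0.248) and Mtfmt, the formyltransferase, -0.22 (adjusted p = 0.319).

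The phenylalanyl enzyme Fars2 rose to 47.2 ± 6.68 CPM in 4FM3 libraries, against 33.3 ± 2.43 CPM in PBS libraries, a fold of 1.41 (adjusted p = 0.00175). Iars2, the isoleucyl enzyme, rose to 160 ± 8.61 CPM, against 120 ± 13.7 CPM with PBS, a fold of 1.33 (adjusted p = 0.00156). For the threonyl enzyme Tars2 the means were 49.6 ± 3.81 CPM with 4FM3 and 38.1 ± 4.50 CPM with PBS, and it rose by a fold of 1.30 (adjusted p = 0.00477). None of these 3 genes overlapped between the groups. Smaller rises were also called for Rars2 (fold 1.27), Cars2 (1.25) and Nars2 (1.18), which charge arginine, cysteine and asparagine, and Nars2 lost its call under 12 of the 18 alternative settings, Rars2 under 7 and Cars2 under 2. The 6 genes that did not pass were Sars2, Vars2, Hars2, Wars2, Mars2 and Pars2, for serine, valine, histidine, tryptophan, methionine and proline, with log2 fold changes of 0.23, 0.18, 0.18, 0.14, 0.08 and 0.03. Pars2 had the lowest level of the class, 5.13 ± 0.31 CPM in 4FM3 libraries and 5.03 ± 0.84 CPM in PBS libraries. Aars2, Ears2, Fars2, Iars2, Tars2 and Yars2 were the 6 mitochondrial members called under each of the 18 alternative settings tried.

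Lars2, the mitochondrial leucyl enzyme, had the largest fitted change of the 38 genes and the widest spread. It had 49.7, 46.5, 83.0, 122 and 207 CPM in 4FM3 replicates 1 to 5, against 35.3, 33.8, 35.7, 38.7 and 42.5 CPM in PBS replicates 1 to 5. All 4FM3 libraries were above all PBS libraries, but replicates 1 and 2 lay close to the PBS values and replicate 5 was far above the rest of its group. The log2 fold change was 1.45 (SE 0.40, adjusted p = 0.0161), and 1.01 without 4FM3 replicate 5. With PBS replicates 2 and 3 left out it was 1.40 (SE 0.52, adjusted p = 0.0827), of similar size but not called with fewer libraries. The coefficient of variation was 65.4% in the 4FM3 group, where the median over the 38 genes was 8.66%. Without Lars2 the median of the mitochondrial class was 0.336, with 10 of 16 genes called.

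Lars2 lies at chr9:123366927-123462666 on the plus strand (mm10). Its row in mouse libraries is known to collect ribosomal RNA reads in some datasets, so rows of that kind were looked up. Gm26917, an annotated row known for such reads, had 4720, 4990, 4840, 5070 and 4870 CPM in 4FM3 libraries, against 6000, 7530, 5580, 5050 and 6340 CPM in PBS libraries. The groups overlapped only between 4FM3 replicate 4 and PBS replicate 4, and Gm26917 fell with a log2 fold change of -0.32 (adjusted p = 0.0343). That call was lost without any single 4FM3 library, without PBS replicate 2, 3 or 5 singly, and without PBS replicates 2 and 3 together. The rows mt-Rnr1, mt-Rnr2, Gm42418, AY036118 and Gm15564 were listed at 0 counts in every library. Whether ribosomal RNA reads bear on the Lars2 values was not tested. The neighbouring gene Limd1, on the side of higher coordinates, had 134, 124, 124, 127 and 158 CPM in 4FM3 libraries, against 128, 130, 126, 133 and 129 CPM in PBS libraries (adjusted p = 0.633). The groups overlapped, and Limd1 was highest in 4FM3 replicate 5 but near the PBS values in the other 4FM3 libraries. Clec3b, on the other side, had a log2 fold change of -0.05 (adjusted p = 0.606), Tmem158 of -1.30 (adjusted p = 0.00299), Sacm1l of 0.23 (adjusted p = 0.0309) and Slc6a20b of -0.23 (adjusted p = 0.412).

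**Figure D2:**
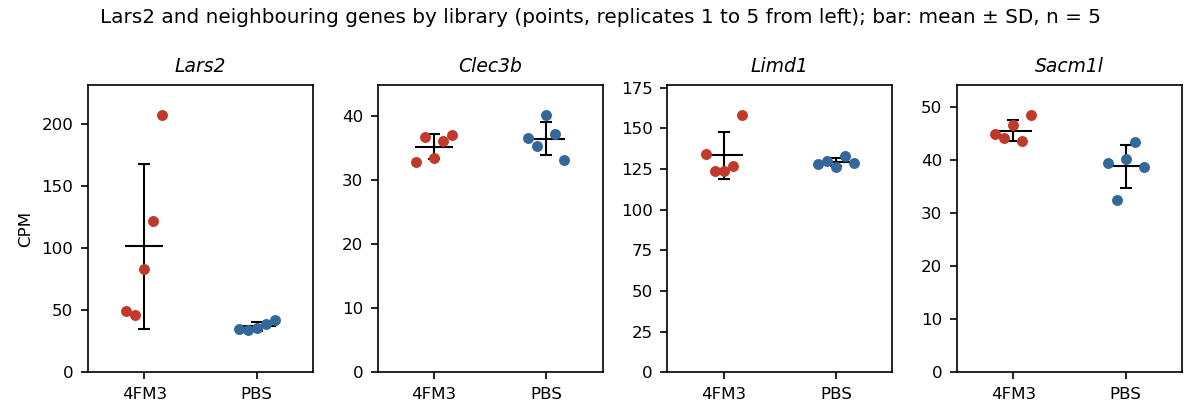
Level of Lars2 and of the neighbouring genes Clec3b, Limd1 and Sacm1l in CPM for each library, with 4FM3 left of PBS; points are replicates 1 to 5 from left and bars the mean ± SD (n = 5 each). Lars2 averaged 102 ± 66.4 CPM in 4FM3 libraries and 37.2 ± 3.46 CPM in PBS libraries; Limd1 and Clec3b were not called.

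Tarsl2, a further threonyl synthetase from a gene of its own, had the largest change of the cytosolic class. Its levels were 39.7, 29.5, 37.3, 37.6 and 32.4 CPM in 4FM3 replicates 1 to 5, against 22.4, 20.4, 23.3, 25.7 and 18.3 CPM in PBS replicates 1 to 5. The groups did not overlap, and Tarsl2 rose by a log2 fold change of 0.68 (SE 0.11, adjusted p = 0.000544), a fold of 1.60. The main cytosolic threonyl gene, Tars, had a log2 fold change of 0.04 (adjusted p = 0.774). Tarsl2 lies at chr7:65644898-65692091 on the plus strand.

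Kars, which supplies lysyl transfer RNA to the cytosol and to mitochondria, had 93.7, 86.8, 101, 91.6 and 86.1 CPM in 4FM3 libraries, against 73.0, 59.4, 65.9, 74.1 and 65.7 CPM in PBS libraries. Every 4FM3 library was above every PBS library, and Kars rose by a log2 fold change of 0.44 (SE 0.07, adjusted p = 0.000688). The other dual-location gene, Gars, which charges glycine, had 83.4, 84.5, 88.9, 91.0 and 101 CPM with 4FM3 and 79.5, 79.2, 78.1, 86.3 and 84.4 CPM with PBS. The groups overlapped, and with a log2 fold change of 0.14 (SE 0.07, adjusted p = 0.0979) Gars did not pass. Kars lies at chr8:111993443-112011323 on the minus strand and Gars at chr6:55038007-55079500 on the plus strand. The difference between the changes of Kars and Gars was not tested.

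Farsb, the beta subunit of the cytosolic phenylalanyl enzyme, had 54.5, 52.4, 50.5, 51.5 and 38.7 CPM in 4FM3 libraries, against 37.0, 33.1, 32.3, 29.1 and 34.3 CPM in PBS libraries. The groups did not overlap, with 4FM3 replicate 5 the lowest of its group, and Farsb rose by a log2 fold change of 0.58 (SE 0.10, adjusted p = 0.000699). Farsa, the alpha subunit, was singled out after the values were seen, and had 24.8, 22.8, 21.1, 22.4 and 22.8 CPM with 4FM3 and 24, 24.3, 23.5, 22.3 and 24.2 CPM with PBS. Its groups overlapped, and its log2 fold change was -0.05 (SE 0.07, adjusted p = 0.576). The enzyme is known to hold equal numbers of both protein chains. CPM counts RNA reads and is not corrected for gene length, so the size of a CPM ratio says nothing about that balance. The Farsb CPM over the Farsa CPM was 2.19, 2.30, 2.39, 2.30 and 1.70 in 4FM3 libraries, against 1.54, 1.36, 1.37, 1.31 and 1.41 in PBS libraries. No 4FM3 ratio was as low as any PBS ratio, and the difference of the mean log2 ratios was 0.63 (two-sided exact permutation p = 0.00794, the smallest that 252 assignments can give). This ratio was chosen after the values were seen, and the p-value describes a contrast picked for its size. Farsb lies at chr1:78417975-78488897 on the minus strand and Farsa at chr8:84856989-84869257 on the plus strand.

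**Figure D3:**
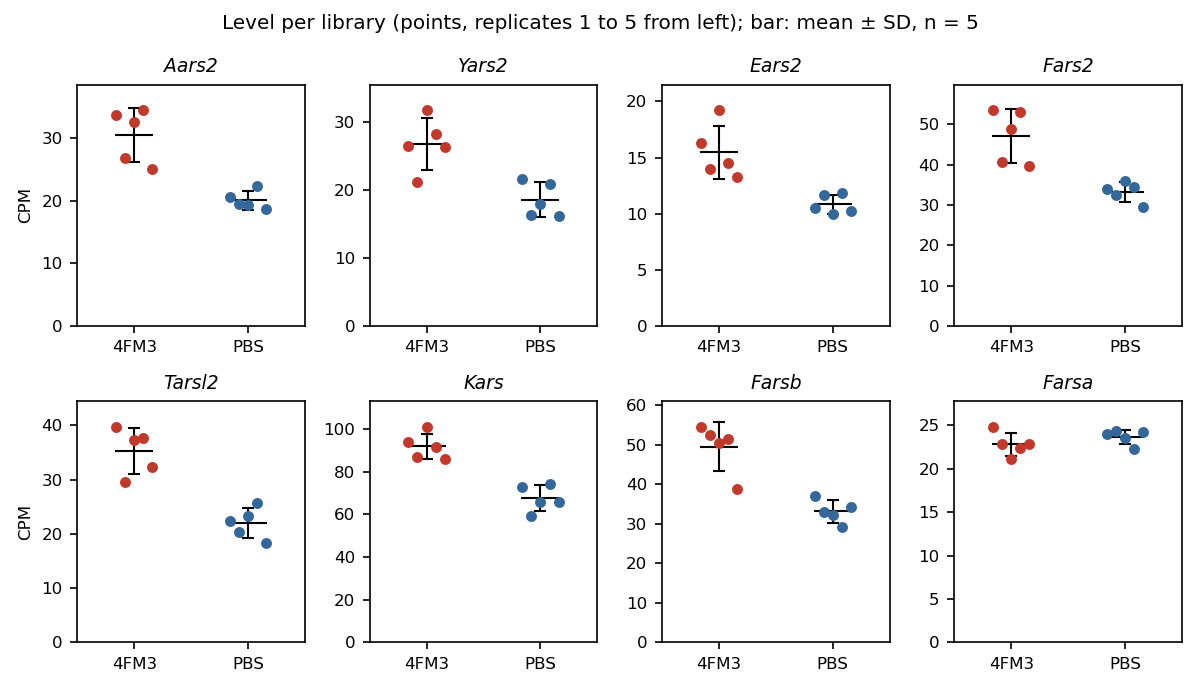
Level in CPM of 8 synthetase genes in each library, with 4FM3 left of PBS; points are replicates 1 to 5 from left and bars the mean ± SD (n = 5 each). Aars2, Ears2, Fars2, Tarsl2, Kars and Farsb do not overlap between the groups, Yars2 overlaps in 1 library of each group, and Farsa averages 22.8 ± 1.33 CPM with 4FM3 and 23.7 ± 0.82 CPM with PBS.

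Dars, the cytosolic aspartyl enzyme, had 99.4, 84.2, 95.6, 78.6 and 84.6 CPM in 4FM3 libraries, against 71.7, 61.9, 70.6, 73.7 and 70.0 CPM in PBS libraries. The groups did not overlap, and Dars rose by a log2 fold change of 0.35 (SE 0.08, adjusted p = 0.00335). It lies at chr1:128363707-128417368 on the minus strand. Hars, Iars and Qars, for histidine, isoleucine and glutamine, rose by folds of 1.18, 1.13 and 1.13 with overlapping groups, and each of the 3 missed the threshold under at least 10 of the 18 alternative settings. Farsb, Kars and Tarsl2 were called under all 18.

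The 14 cytosolic genes that did not pass had log2 fold changes between -0.05 and 0.14. They included Eprs, at 195 ± 11.8 CPM in 4FM3 libraries and 178 ± 5.27 CPM in PBS libraries (adjusted p = 0.096). Wars, the tryptophanyl enzyme, is known as a gene that interferon gamma induces. It had 45.2, 53.6, 36.0, 52.1 and 41.3 CPM in 4FM3 libraries, against 37.6, 60.1, 39.1, 40.0 and 52.4 CPM in PBS libraries. The ranges of the groups overlapped over most of their length, and the log2 fold change was -0.01 (SE 0.15, adjusted p = 0.98). The 20 interferon response genes summed to 251, 294, 209, 228 and 173 CPM in 4FM3 libraries and to 288, 591, 304, 222 and 797 CPM in PBS libraries. The PBS libraries with the highest Wars level, replicates 2 and 5, were also those with the highest interferon sums. In the 4FM3 group replicate 2 was the highest in both. Wars in 4FM3 replicate 4, at 52.1 CPM, was near PBS replicate 5, at 52.4 CPM, but the interferon sums were 228 and 797 CPM. Of the 19 interferon genes tested, 7 fell and 0 rose, where 22.1% of all genes tested fell and 20.9% rose. The median log2 fold change of the 19 genes was -0.97. The number that fell was 13 without PBS replicate 4, 12 with library size alone and 4 without PBS replicates 2 and 3. It was 2 with 4FM3 replicates 2 and 5 left out besides these PBS libraries. Whether these genes bear on Wars was not tested.

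In the cytosol, 8 of the enzymes (Dars, Eprs, Iars, Kars, Lars, Mars, Qars and Rars) are known to sit in the multi-tRNA synthetase complex. Grouped after the values were seen, 4 of these 8 genes rose (median log2 fold change 0.16), and 3 of the other 13 rose (median 0.04). Among all genes tested, 20.9% rose and the median was -0.03. The difference between the 8 and the 13 genes was not tested. Of the 3 scaffold genes of the complex, Aimp1 rose with a log2 fold change of 0.30 (adjusted p = 0.0297), and Eef1e1 and Aimp2 had 0.42 and 0.24 without passing. Of the 3 scaffold genes, 0 were called with library size alone, without PBS replicates 2 and 3 together, or without 4FM3 replicate 3 or 4 or PBS replicate 2, 3 or 5 singly.

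The compartments were then set side by side for each amino acid, in 19 pairs of a mitochondrial with a cytosolic gene. The mitochondrial gene had the larger change in 14 pairs and the cytosolic gene in 5. The per-library ratio of mitochondrial over cytosolic enzyme was higher in every 4FM3 library than in every PBS library for 5 pairs, Lars2 over Lars, Fars2 over Farsa, Yars2 over Yars, Ears2 over Eprs and Iars2 over Iars, and lower in 0. The largest difference between changes was 1.35 for Lars2 minus Lars, followed by 0.55 for Fars2 minus Farsa and 0.51 for Yars2 minus Yars. Fars2 against the other subunit, Farsb, gave -0.08. The pair most in favour of the cytosolic gene was Tars2 minus Tarsl2, at -0.30, whereas Tars2 minus Tars was 0.34. A scaling factor common to a library cancels in these ratios, and several pairs share a gene.

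**Figure D4:**
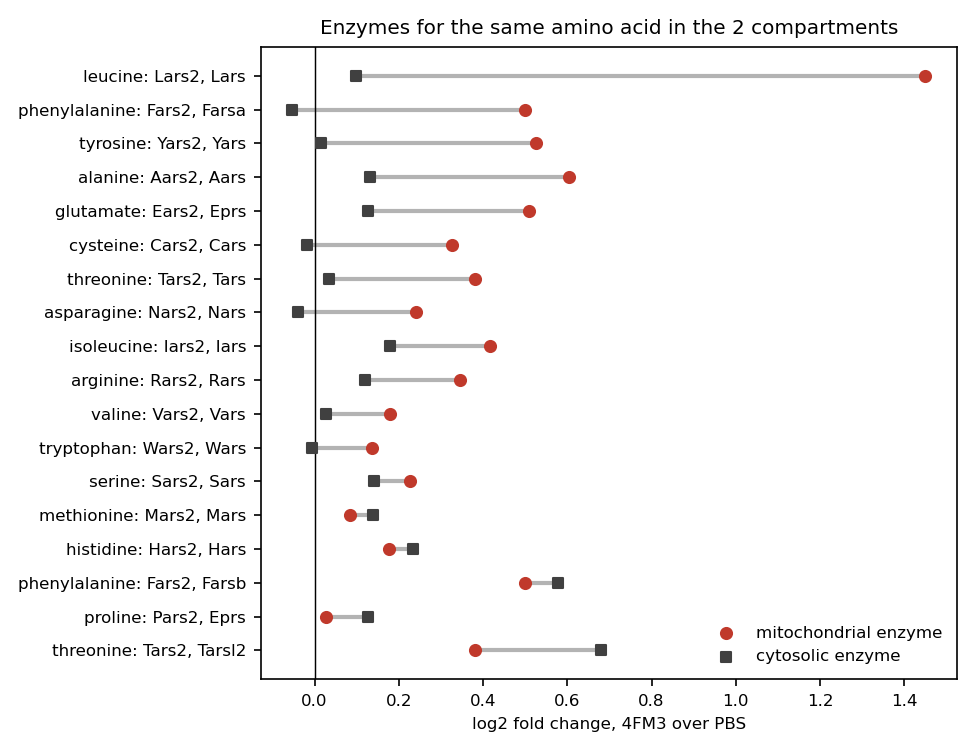
Fitted log2 fold change of 4FM3 over PBS for the mitochondrial enzyme (red circles) and the cytosolic enzyme (dark squares) for 18 of the pairs, ordered by their difference from the largest in favour of the mitochondrial gene at the top. The mitochondrial point lies to the right in 13 of the 18 pairs drawn.

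Levels between genes were compared as CPM per kilobase of merged exons. Gars was the highest of the 38 genes in both groups, at 28.8 ± 2.30 in 4FM3 libraries and 26.1 ± 1.16 in PBS libraries. Pars2 was the lowest, at 1.66 ± 0.10 with 4FM3 and 1.63 ± 0.27 with PBS. The median level of the mitochondrial class was 4.58 CPM per kilobase with 4FM3 and 3.36 with PBS, below the cytosolic class at 13.2 with 4FM3 and 11.8 with PBS. Iars2 led the mitochondrial class, at 18 ± 0.97 with 4FM3 and 13.5 ± 1.54 with PBS, which placed it at rank 8 of all 38 genes in either group, and Kars stood at rank 2 with 4FM3 and rank 6 with PBS. The order depended on the length used. Per kilobase of the longest coding transcript Kars was the highest with 4FM3, at 42.0 ± 2.75, Eprs was the highest with PBS, at 36.3 ± 1.07, and the class medians were 8.18 (4FM3) and 5.98 (PBS) for the mitochondrial class and 17.8 (4FM3) and 16.2 (PBS) for the cytosolic class.

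Because many cytosolic synthetase genes are known ATF4 targets, the promoters were searched for the C/EBP-ATF response element, the DNA site that ATF4 binds with C/EBP proteins. The window ran from 250 bases before the start site to 50 bases after it, in RefSeq sequences on GRCm38.p6, and 28 of the 38 members had an entry (14 in each class). The letters TGATGNAA, read on both strands, were in 0 of the 14 mitochondrial promoters and in 5 of the 14 cytosolic ones, and in 4.51% of the promoters of 27025 genes. Aars held the element at 2 places and Gars, Iars, Tars and Yars at 1. The promoters below are those of Aars and Iars, which hold it, and of Tarsl2 and Aars2, the leading genes of each class apart from Lars2, which do not; all are on the plus strand, 5′ to 3′, at chr8:111033592-111033891 (Aars), chr13:49681880-49682179 (Iars), chr7:65644648-65644947 (Tarsl2) and chr17:45506582-45506881 (Aars2), with the element in capitals, here as its reverse complement.
Aars: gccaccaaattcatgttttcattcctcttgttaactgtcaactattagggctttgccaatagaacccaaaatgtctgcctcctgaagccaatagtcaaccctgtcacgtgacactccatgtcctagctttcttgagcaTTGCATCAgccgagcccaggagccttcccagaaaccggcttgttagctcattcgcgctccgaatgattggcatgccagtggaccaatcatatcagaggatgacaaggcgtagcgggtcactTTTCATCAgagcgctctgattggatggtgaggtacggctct
Iars: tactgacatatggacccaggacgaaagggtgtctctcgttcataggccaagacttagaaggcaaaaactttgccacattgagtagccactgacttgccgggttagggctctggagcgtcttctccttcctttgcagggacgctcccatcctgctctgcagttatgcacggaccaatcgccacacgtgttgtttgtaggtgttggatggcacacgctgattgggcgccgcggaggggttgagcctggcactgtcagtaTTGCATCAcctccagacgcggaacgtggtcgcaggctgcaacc
Tarsl2: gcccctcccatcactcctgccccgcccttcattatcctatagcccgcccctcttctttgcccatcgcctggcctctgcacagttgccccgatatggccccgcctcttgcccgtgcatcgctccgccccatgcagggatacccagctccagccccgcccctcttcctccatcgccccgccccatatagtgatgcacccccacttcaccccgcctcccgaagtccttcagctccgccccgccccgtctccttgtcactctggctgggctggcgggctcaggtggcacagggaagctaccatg
Aars2: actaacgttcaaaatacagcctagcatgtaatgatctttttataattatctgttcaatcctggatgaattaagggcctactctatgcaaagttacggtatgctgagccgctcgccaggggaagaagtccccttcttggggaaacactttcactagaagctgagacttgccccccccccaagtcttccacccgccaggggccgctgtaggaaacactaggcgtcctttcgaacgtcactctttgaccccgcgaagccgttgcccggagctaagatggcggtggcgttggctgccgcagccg

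The 5 genes with the element had log2 fold changes of 0.13 (Aars), 0.14 (Gars), 0.18 (Iars), 0.04 (Tars) and 0.02 (Yars), and of these Iars rose. Tarsl2 and Aars2, with the larger changes, did not hold these letters in this window. Other motifs were searched in the same way on both strands. The letters CCGGAAG, bound by ETS factors such as GABP, were in 4 mitochondrial and 5 cytosolic promoters of the 14 in each class, and in 9.93% of all promoters. The YY1 letters AAGATGGC were in Aars2, Wars2, Yars2 and Farsa and in 3.19% of all promoters, and the NRF1 motif was in Iars2, Mars2, Farsb, Kars and Tars and in 5.19%. The E-box CACGTG was in Ears2, Aars, Farsb, Iars and Tars and in 8.09% of all promoters, and AAGGTCA, the site of estrogen-related receptors, was in none of the 28 matched promoters and in 5.38% of all promoters. A match is a description of the sequence and not a binding site.

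Few of the remaining genes of the ATF4 response rose. Of 26 tested genes for ATF4 and its targets other than synthetases, 1 rose and 7 fell. Over all genes tested, 20.9% rose and 22.1% fell. The median log2 fold change of the 26 genes was -0.33. The genes of the list with the smallest p were Slc1a5, a glutamine and neutral amino acid transporter (-1.43, adjusted p = 0.000515), Nupr1, a stress-induced chromatin protein (-1.19, adjusted p = 0.00364), and Aldh18a1, an enzyme of proline synthesis (-0.36, adjusted p = 0.0158). Atf4 itself had a log2 fold change of 0.07 (adjusted p = 0.537). The number that fell was 13 without 4FM3 replicate 5, 4 without 4FM3 replicate 3, PBS replicate 2 or PBS replicate 5, 12 with library size alone and 3 without PBS replicates 2 and 3.

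Other genes of mitochondrial translation rose as well. Among all genes tested, 20.9% rose, 22.1% fell and 14.1% did not overlap with 4FM3 higher. Of 10 mitochondrial translation factors 9 rose and 0 fell, and the median of their log2 fold changes was 0.49, among them the elongation factors Gfm1 (0.69, adjusted p = 0.00039) and Tufm (0.70, adjusted p = 0.000407) and the initiation factor Mtif2 (0.65, adjusted p = 0.000424). Of 16 genes that process or modify mitochondrial transfer and ribosomal RNA, 8 rose and 0 fell, with a median of 0.34. The leading ones were the RNA methyltransferase Nsun4 (0.56, adjusted p = 0.000224), the tRNA-modifying enzyme Cdk5rap1 (0.64, adjusted p = 0.000271) and Hsd17b10, a subunit of mitochondrial RNase P (0.74, adjusted p = 0.000302). In both lists 5 genes rose without PBS replicates 2 and 3. With library size alone 6 translation factors rose, and of the processing genes 5 rose and 1 fell, with a median of 0.17. The 13 protein-coding genes of the mitochondrial genome all rose, with a median of 0.76, and 7 of them did not overlap between the groups. With library size alone 12 rose, and without PBS replicates 2 and 3 together 10 rose. The number was 11 without 4FM3 replicate 1 or 3 or PBS replicate 2 or 5 singly, and 11 with no filter on low counts. Levels within this list lay far apart. Means were 39100 CPM with 4FM3 and 21700 with PBS for mt-Co1, 16.2 and 9.58 for mt-Co2, and 22.8 and 13 for mt-Co3. The cause of this spread was not tested.

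Cytosolic elongation was mixed. Of 8 genes, 5 rose and 1 fell, where 20.9% of all genes tested rose and 22.1% fell. Eef1a2, the form of elongation factor 1 alpha of adult heart and muscle, rose by 0.68 (adjusted p = 0.000424), Eef1a1, its widely expressed counterpart, fell by 0.75 on the log2 scale (adjusted p = 0.000475), and Eif5a rose by 0.29 (adjusted p = 0.00229). With library size alone 1 gene of the list rose and 1 fell. Among 14 regulators of genes for mitochondria, in the nucleus or in mitochondrial DNA, 9 rose and 1 fell, with a median of 0.41. Those with the smallest p were Tfam, which packages mitochondrial DNA and acts in its transcription (0.61, adjusted p = 0.000271), and the estrogen-related receptors Esrra (0.67, adjusted p = 0.000627) and Esrrg (0.59, adjusted p = 0.00104). With library size alone, 7 of these regulators rose and 2 fell.

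**Figure D5:**
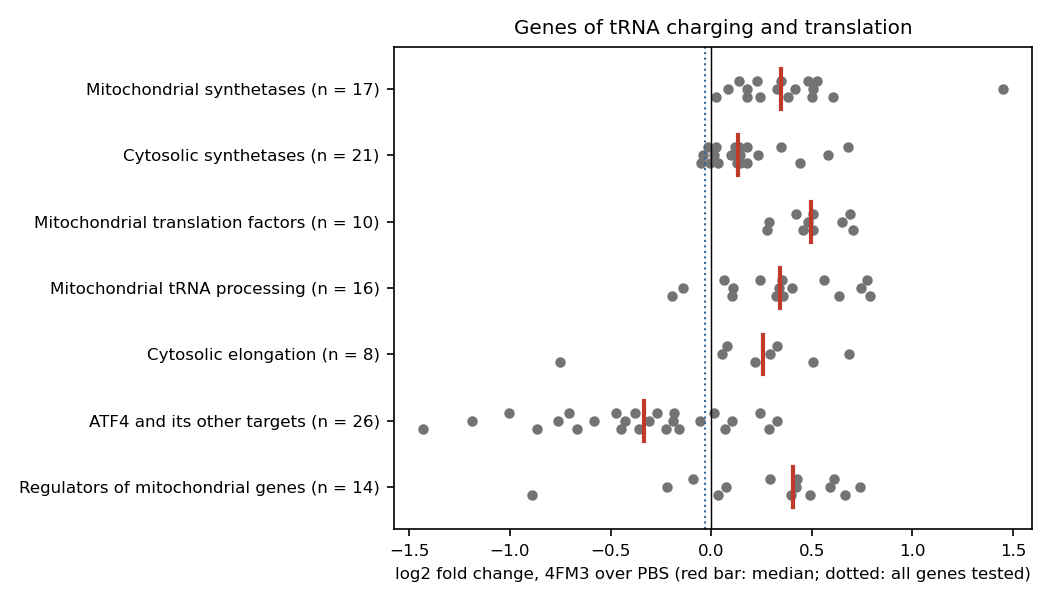
Fitted log2 fold change of 4FM3 over PBS for each tested gene (points) of both synthetase classes and of 5 lists of related genes, with the median of each as a red bar and that of all genes tested as a dotted line. The medians run from -0.33 for ATF4 and its other targets to 0.49 for mitochondrial translation factors; the cytosolic synthetase median of 0.13 becomes -0.04 with library size alone.

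The groups also differed in transcripts of cell types, and in bulk tissue fewer cells of a type and less RNA per cell cannot be told apart. Of 15 cardiomyocyte markers 13 rose and 0 fell, where 20.9% of all genes tested rose and 22.1% fell. With library size alone 10 of these markers rose, as did 10 without PBS replicates 2 and 3. With 4FM3 replicates 2 and 5 also left out, 10 rose and 1 fell. The summed level of the cardiomyocyte markers was 148000, 130000, 145000, 157000 and 144000 CPM in 4FM3 replicates 1 to 5, against 108000, 85700, 95300, 113000 and 83500 CPM in PBS replicates 1 to 5. The 4FM3 library with the lowest sum, replicate 2, had the lowest class mean of the mitochondrial synthetases in its group, and in the PBS group the highest and lowest sums, in replicates 4 and 5, fell with the highest and lowest class means. Of 15 fibroblast markers 14 fell and 0 rose, with summed levels of 6160 to 10800 CPM in 4FM3 libraries and 14200 to 16600 CPM in PBS libraries. Of 14 macrophage markers 9 fell and 0 rose, with sums of 811 to 977 CPM in 4FM3 libraries and 927 to 1970 CPM in PBS libraries. The number of macrophage markers that fell was 4 without 4FM3 replicate 3, with the replicate block or without PBS replicates 2 and 3, and 13 with library size alone. It was 2 with PBS replicates 2 and 3 and 4FM3 replicates 2 and 5 all left out. Endothelial markers had 5 of 10 higher and 0 lower, at 1690 to 1800 CPM with 4FM3 and 1470 to 1730 CPM with PBS. Higher calls among them numbered 3 without 4FM3 replicate 1 or 2 or PBS replicate 1 or 3, 2 without PBS replicates 2 and 3 and 1 with library size alone. No marker of these 4 lists was at 0 in all libraries, and the cardiomyocyte markers expected of a ventricle were abundant in every library. In a further list, of 8 smooth muscle and pericyte markers, 3 rose and 5 fell. The part of cell composition in the changes of the synthetases was not tested.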

How the data were processed

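RNA was sequenced from 10 left ventricle libraries. The deposited table holds whole-number counts per gene with, per the file headers, normalized expression values and transformed values beside them. The normalized signal is the authors' count times 1 factor per library (0.9311 to 1.114), and the transformed values are the authors' log2 of it plus 1, as the values show; only the counts were used. The submitters' processing notes name mm10, and the sources used here name neither the aligner nor the counter nor its use of strand. Symbols turned into dates filled 26 of 49585 rows, which held 0.131 to 0.161% of counts and match no member; each stands for a gene whose symbol is lost, so they stayed in the library sizes and in the fit and are not named.

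Counts were filtered with filterByExpr, scaled by TMM and tested on the whole table with the robust quasi-likelihood test of edgeR 4.0.16 (R 4.3.3), 4FM3 minus PBS, with Benjamini-Hochberg adjustment and a threshold of 0.05; the script was tested on simulated data. Alternatives used DESeq2 1.42.0, limma 3.58.1, other scalings and filters, a replicate block and left-out libraries. No pairing by shared replicate number was seen: the correlations lay between -0.045 and 0.06. Such values cannot exclude a batch shared by libraries of the same number. Gene positions and lengths come from GENCODE M21 (mm10), and promoters from RefSeq on GRCm38.p6, with Mars matched through a synonym. CPM per kilobase replaced the planned TPM, which rescales each library over its own composition. Values per library are printed for the 4 called genes with the largest change in each class, for Gars, Kars, Lars2 and Wars, and up to 3 genes with the smallest p are named from each list. Of the 38 members 1 is counted but not reported by name here. Members and lists were chosen with earlier results of these data known. The floor behind a count of 0 was set at 3 counts, or 0.424 to 0.481 CPM in 4FM3 libraries and 0.371 to 0.391 CPM in PBS libraries, covering counting error only.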

Additional observations from a re-analysis of the deposited data

Results flagged for a closer look

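Single libraries stood apart from the other 4 of their group in 6 of 80 sets of 5 values, by a gap rule that chance meets in about 1 set in 20; the 80 sets are each gene and each class mean in each group. Cars2 was low in 4FM3 replicate 2, at 28.8 CPM against 33.4 to 35 CPM in the other 4FM3 libraries. Farsb was low in 4FM3 replicate 5, at 38.7 CPM against 50.5 to 54.5 CPM. Rars2 was high in 4FM3 replicate 3, at 19.2 CPM against 15.4 to 16.3 CPM. Sars was low in 4FM3 replicate 4, at 62.0 CPM against 70.5 to 72.1 CPM. Vars was high in PBS replicate 4, at 55.1 CPM against 49.4 to 50.8 CPM in the other PBS libraries. The mean log2 CPM of the mitochondrial class was low in 4FM3 replicate 2, at 4.50 against 4.69 to 4.75.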

How the results depend on the processing

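All genes called numbered 5546, and the mitochondrial class kept 0 genes lower and a positive median under every alternative. With library size alone the mitochondrial class had 7 genes higher and a median of 0.17, and the cytosolic class 3 higher, 3 lower (Cars, Farsa, Nars) and a median of -0.04. With no filter on low counts 4 cytosolic genes were higher; the cause was not tested. Without PBS replicates 2 and 3, which leaves fewer libraries, 3521 genes were called over the table, with 6 mitochondrial and 4 cytosolic genes higher, and without these and 4FM3 replicates 2 and 5 the cytosolic class had 4. Leaving out each library in turn gave 4 to 7 cytosolic genes higher (4 without 4FM3 replicate 3 and without PBS replicate 2) and 9 to 11 mitochondrial ones. With the replicate block, whose numbers showed no pairing of the libraries, 5592 genes were called in all, 10 mitochondrial and 6 cytosolic genes higher.

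No member called in the main setting changed sign under any alternative. With library size alone these uncalled members changed sign (Hars2 before rounding): Aars (-0.044), Eprs (-0.047), Gars (-0.035), Hars2 (0), Lars (-0.078), Mars (-0.035), Mars2 (-0.094), Pars2 (-0.146), Rars (-0.054), Sars (-0.034), Tars (-0.144), Vars (-0.149), Wars2 (-0.036) and Yars (-0.158). Wars, at -0.005, became 0.012 with DESeq2 size factors, 0.011 with the DESeq2 test, 0.007 with limma-voom, 0.002 with the replicate block, 0.088 without PBS replicates 2 and 3 and 0.035 without those and 4FM3 replicates 2 and 5. Without PBS replicates 2 and 3 Pars2 was at -0.064 and Yars at -0.040, and with 4FM3 replicates 2 and 5 also left out Pars2 was at -0.026, Vars at -0.038 and Yars at -0.056. Leaving out 1 library moved Nars between -0.061 and 0.002, Pars2 between -0.010 and 0.142, Tars between -0.009 and 0.091, Wars between -0.068 and 0.122 and Yars between -0.017 and 0.054. Over the 38 members and 18 alternatives, 579 values kept direction and side of the threshold, 58 lost the call, 10 gained it and 37 changed sign, all judged before rounding. With 33 counts as the lowest value of a member, counting error bears most on Pars2.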

Other observations

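Genes that remove or edit wrongly charged transfer RNA were measured beside the synthetases. Of the 4 deacylase genes, 0 rose and 0 fell: Dtd2 had a log2 fold change of 0.26 (adjusted p = 0.0957), Prorsd1 0.17 (adjusted p = 0.277), Dtd1 0.19 (adjusted p = 0.319) and Aarsd1 0.24 (adjusted p = 0.572), all from the edgeR quasi-likelihood test. All 4 values were positive, and the groups overlapped in each. The shares of all genes tested that rose and fell were 20.9% and 22.1%.

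Several members share exons with another gene, and whether the counting used strand is not given. Iars2 shares 22.9% of its exon length with Rab3gap2 on the opposite strand, whose log2 fold change was -0.16 (adjusted p = 0.111). Fars2 shares 8.72% with Nrn1, at -0.15, and Cars2 shares 5.83% with Naxd, at 0.02. Farsb shares 9.47% with Sgpp2 and Aars 14.3% with Exosc6, neither of which was among the genes tested. Reads from such pairs could be counted for either gene.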
